A study of Mus musculus with 7 samples.

Results

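The *Trim71*, *Ipmk*, *Camkv*, *Zfp532*, *Zfp704* and *Gm11627* genes each carry a putative Reprogramming-Inducible Enhancer (RIE) that overlapped no ATAC-seq peak in any of 7 mouse libraries. An RIE was defined in the study as a site near a transcription start site (TSS) that the reprogramming factors Oct4, Sox2, Klf4 and c-Myc, together OSKM, bind from early in reprogramming and in embryonic stem cells (ESCs), beside a gene with more RNA in ESCs than in fibroblasts. The site also had to be free of these factors in uninduced fibroblasts and to hold many separate binding peaks of them. The study listed 66 such sites at 65 genes, and 58 of the sites overlapped an ATAC-seq peak in at least 1 library by at least 1 bp. The other 8 sites comprised those of the 6 genes described here, the site of *AI661453* and 1 of the 2 sites of *Cnpy1*. These 6 genes were therefore chosen by the peak lists themselves, so the absence of a peak at their RIE is how they were selected and not a result.

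The libraries measured open chromatin, which Tn5 transposase cuts more readily than DNA wrapped in nucleosomes. The 6 libraries from mouse embryonic fibroblasts (MEFs) share 2 alleles, Col1a1tm1(tetO-Pou5f1,-Klf4,-Sox2,-Myc)Hoch on B6;129S4 and Gt(ROSA)26Sortm1(rtTA*M2)Jae on B6.Cg. Day 0 is the untreated culture, and the other 5 (days 1, 2, 3, 6 and 9) received 2 µg/mL doxycycline, which switches on the 4 factors through rtTA. The last library is from untreated ESCs of the Bruce-4 line, for which the labels enter the genotype of the MEFs. MEFs are a mixed culture from embryos freed of head, heart and liver, and only a minority of induced cells completes reprogramming. In such bulk libraries, fewer cells with an open site and a less open site in each cell cannot be told apart. Each time-point has 1 library, so no difference between time-points could be tested, and the values below describe these libraries. Values given in order of time are for days 0, 1, 2, 3, 6 and 9.

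An enhancer is a stretch of DNA to which transcription factors bind to raise transcription of a gene nearby, and a bound enhancer usually lacks nucleosomes. Oct4, Sox2 and Klf4 can also contact DNA that is still wrapped in nucleosomes, so that a bound site need not be open to the transposase. *Trim71*, the mouse relative of worm lin-41, encodes a RING finger protein that binds and represses mRNAs in early embryos and stem cells, and its own mRNA is a target of the let-7 microRNAs. *Ipmk* encodes inositol polyphosphate multikinase, which phosphorylates inositol phosphates, and *Camkv* encodes a brain-enriched relative of the calmodulin-dependent kinases that lacks kinase activity. *Zfp532* and *Zfp704* encode zinc finger proteins, and *Gm11627* is a predicted protein-coding gene.

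The sequences of 4 of the RIEs are shown because the sites and their neighbouring peaks are the object of each comparison below. They were read from the mm10 (GRCm38) reference, plus strand, with positions counted from 1. For each site the window is the central stretch or, where the site reaches over the TSS, the stretch on its upstream side. The *Trim71* window is chr9:114564370-114564669, the *Ipmk* window chr10:71346263-71346562, the *Camkv* window chr9:107936337-107936636 and the *Gm11627* window chr11:102579462-102579728. A pair of neighbouring regions that had a peak in all 5 doxycycline libraries and none on day 0 is shown for contrast, as chr9:114584379-114584678 upstream of *Trim71* and chr3:9600157-9600456 in an intron of *Zfp704*. Capitals mark matches on either strand to ATGCAAAT (the octamer bound by Oct4), ACAAAG or ACAATG (cores bound by Sox factors), GGGNGTGG (Klf factors), CACGTG (the E-box bound by Myc) and TGANTCA (AP-1).
Trim71 RIE: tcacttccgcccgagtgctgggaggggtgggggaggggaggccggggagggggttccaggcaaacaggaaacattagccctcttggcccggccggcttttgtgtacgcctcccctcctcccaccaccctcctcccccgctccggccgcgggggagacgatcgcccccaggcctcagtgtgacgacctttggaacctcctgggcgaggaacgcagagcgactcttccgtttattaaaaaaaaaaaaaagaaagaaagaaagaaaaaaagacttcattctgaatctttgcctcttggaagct
Ipmk RIE: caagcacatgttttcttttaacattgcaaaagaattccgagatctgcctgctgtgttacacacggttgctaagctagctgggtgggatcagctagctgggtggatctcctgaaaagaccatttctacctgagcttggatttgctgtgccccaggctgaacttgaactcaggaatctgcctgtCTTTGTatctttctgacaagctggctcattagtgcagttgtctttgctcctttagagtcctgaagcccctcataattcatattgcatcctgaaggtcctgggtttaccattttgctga
Camkv RIE: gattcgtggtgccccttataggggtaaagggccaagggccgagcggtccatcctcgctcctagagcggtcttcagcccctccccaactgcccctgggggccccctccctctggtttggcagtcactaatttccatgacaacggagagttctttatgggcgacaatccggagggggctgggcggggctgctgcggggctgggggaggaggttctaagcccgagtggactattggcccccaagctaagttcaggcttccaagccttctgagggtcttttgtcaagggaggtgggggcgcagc
Gm11627 RIE: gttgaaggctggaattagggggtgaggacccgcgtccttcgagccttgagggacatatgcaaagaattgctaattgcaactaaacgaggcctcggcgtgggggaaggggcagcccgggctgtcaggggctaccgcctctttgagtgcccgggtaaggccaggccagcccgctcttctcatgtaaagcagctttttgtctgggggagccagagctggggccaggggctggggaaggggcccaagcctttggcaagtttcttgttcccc
Trim71 upstream region: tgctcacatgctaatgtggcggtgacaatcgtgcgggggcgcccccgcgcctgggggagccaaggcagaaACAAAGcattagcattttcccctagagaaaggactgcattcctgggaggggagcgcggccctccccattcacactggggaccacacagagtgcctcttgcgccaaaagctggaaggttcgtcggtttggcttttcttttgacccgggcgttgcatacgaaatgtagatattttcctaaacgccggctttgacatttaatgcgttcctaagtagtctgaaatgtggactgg
Zfp704 intronic region: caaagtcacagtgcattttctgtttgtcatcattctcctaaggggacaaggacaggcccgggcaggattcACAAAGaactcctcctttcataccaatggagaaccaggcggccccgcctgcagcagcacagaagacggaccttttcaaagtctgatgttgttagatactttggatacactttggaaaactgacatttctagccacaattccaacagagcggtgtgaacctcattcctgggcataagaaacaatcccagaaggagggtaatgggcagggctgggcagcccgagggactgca

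Among these 4 RIE windows, the *Ipmk* window alone held a match, 1 Sox core, and the windows of the 2 neighbouring regions each held 1 ACAAAG core. Over their whole length, ACAAAG was found 3 times in the *Trim71* region (1124 bp) and 4 times in the *Zfp704* region (790 bp). For the RIEs, whole-site matches and composition are given for 5 sites, all but that of *Zfp704*. ACAAAG was found 2 times each in the sites of *Trim71*, *Ipmk* and *Zfp532*, which also held GGGNGTGG, and TGANTCA was found in the *Ipmk* site. The *Gm11627* and *Camkv* sites held no match to any of the 6 motifs. Such words are common. Of 32851 promoters of 300 bases in the RefSeq set (GRCm38.p6), 18.7% held ACAAAG, 17.6% GGGNGTGG, 12.6% ACAATG, 7.81% TGANTCA, 7.15% CACGTG and 1.74% ATGCAAAT. The sites are wider than such a promoter in most cases, and a match is a stretch of letters, not a bound site.

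In base composition the *Trim71* site differed from the other 4 by its density of CpG. The *Trim71* site, 1750 bp wide, had a GC content of 61.3% and an observed-over-expected CpG ratio of 0.96, with 157 CpG dinucleotides. The *Camkv* and *Gm11627* sites had a similar GC content, 62.5% and 60.7%, but CpG ratios of 0.448 and 0.416. The *Ipmk* and *Zfp532* sites were poorer in GC, with 45.1% and 43.5%, and had CpG ratios of 0.204 and 0.233. The median width of the 6 sites was 573.5 bp beside 624 bp for the 58 sites with a peak. Their median GC content was 53.4% beside 54.8%, and their median CpG ratio was 0.329 beside 0.534, inside the range of 0.0729 to 1.03 of the other sites. The *Zfp532* site lay just below the lowest GC content of the 58 sites, 44.3%. The *Ipmk* site was the most repetitive of all 66, with 55.5% of its bases soft-masked as repeats against at most 49.8% among the 58 sites. Reads from repeats are harder to place, and the part of this in the missing peak was not tested. The *Camkv* and *Gm11627* sites held no masked base.

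Across the 7 libraries, the nearest peak to the 6 RIEs lay between 293 bp and 27957 bp away. *Ipmk* and *Zfp704* had a peak within 1000 bp of the RIE in 7 and in 6 libraries, *Gm11627* in 2 and *Camkv* in 1, while *Trim71* and *Zfp532* had none so near in any library. In order of time, the median distance over the 6 RIEs was 3836, 6358.5, 12827, 6401.5, 3707.5 and 6128 bp, and it was 3296 bp in ESCs. With 6 sites of such unlike distances, this median moved with 1 or 2 genes and showed no steady course. The members nearest to the rule's limit were *Zfp704* (293 bp on day 0), *Gm11627* (314 bp on day 6), *Camkv* (435 bp in ESCs) and *Ipmk* (498 bp on day 0). Just on the other side of the limit were *Zfp568* and *Zfp819*, whose sites each overlapped a single peak, in ESCs, by 131 bp and 138 bp.

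**Figure D1:**
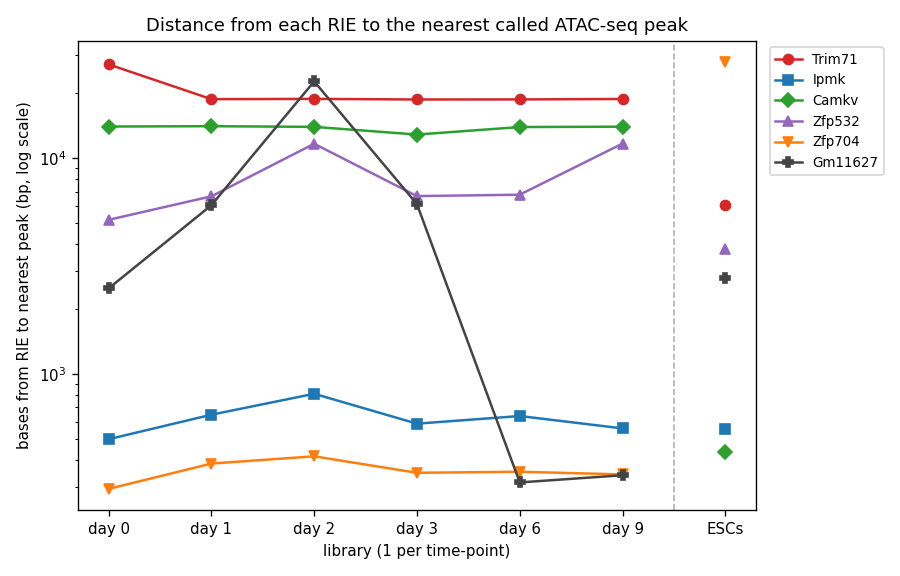
Distance in bp (log axis) from each of the 6 RIEs to the nearest called peak, by library, with 1 point per library and lines joining the MEF-derived libraries; ESCs stand to the right of the dashed line. *Ipmk* stays under 1000 bp in all 7 libraries, *Zfp704* leaves its position near 300 bp only in ESCs (27957 bp), and *Camkv* comes near only in ESCs (435 bp).

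The peak lists differed in length, which bears on each presence and absence described here. In order of time they held 61241, 45709, 33174, 48087, 44855 and 33007 peaks, and the ESC list held 27074, with median widths of 364 to 394 bp. The files give no reads per peak, so the depth behind a peak is unknown, and an absent peak means that none was called. As a check of the labels, 7 of 8 fibroblast markers had a peak within 1000 bp of a start site on day 0 and 2 of 8 in ESCs. Of 8 ESC markers, 3 had one in ESCs (*Esrrb*, *Zfp42* and *Pou5f1*) and 4 on day 0, *Esrrb* and *Pou5f1* among them. *Nanog* had none in any library. Of all protein-coding genes, 59.7% had one on day 0 and 50.3% in ESCs. The ESC markers therefore did not set the ESC library apart, whereas the fibroblast markers did. *Pou5f1* and *Sox2* are also carried by the transgene.

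Each of the 6 genes had at least 1 peak within 20 kb of its gene body in every library. Of 21938 protein-coding genes, 80.4%, 77.2%, 73.6%, 78.4%, 77.8% and 74.2% had such a peak in order of time and 73% in ESCs. A count of 6 of 6 is therefore close to what most genes show. It was 5 of 6 on day 0 with peaks of at least 300 bp or with each list cut to its 27074 widest, where *Trim71* had none, on day 9 at the 300 bp limit, where *Camkv* had none, and on day 2 within 10 kb, where *Gm11627* had none. Summed over the 6 genes, the counts were 32, 23, 21, 26, 25 and 24 peaks in order of time and 24 in ESCs. As a share of each peak list this was between 0.0503% (day 1) and 0.0886% (ESCs), so that the higher count on day 0 went with the longer list. *Zfp704* with 53 and *Zfp532* with 43 peaks over the 7 libraries held most of the sum. They are also the longest genes of the 6, with 183066 bp and 109532 bp, beside a median of 17425 bp over protein-coding genes.

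**Figure D2:**
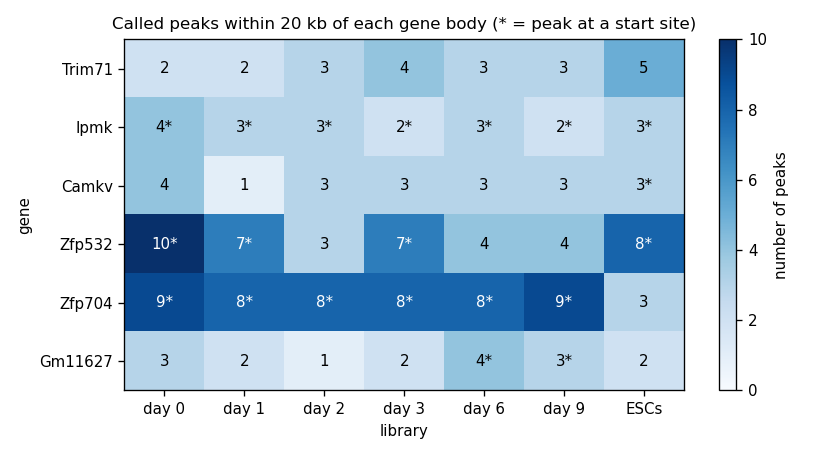
Number of called peaks within 20 kb of each gene body (colour and digits) for the 6 genes (rows) in the 7 libraries (columns), with an asterisk where a peak lay within 1000 bp of an annotated start site. *Zfp704* holds 8 or 9 peaks in the MEF-derived libraries and 3 in ESCs, *Ipmk* has a start-site peak throughout and *Trim71* in no library. The *Trim71* RIE, without a peak by selection, covers most of the start-site window of that gene.

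A peak within 1000 bp of an annotated start site was present for 3 of the 6 genes in each library except day 2, where it was present for 2. The share of all protein-coding genes with one was 59.7%, 55.8%, 51.6%, 56.4%, 57.4% and 53.4% in order of time and 50.3% in ESCs. The 3 genes were not the same throughout. *Ipmk* had a start-site peak in 7 libraries, *Zfp704* in 6 (all but ESCs), *Zfp532* in 4 (days 0, 1 and 3 and ESCs), *Gm11627* in 2 (day 6 and day 9), *Camkv* in 1 (ESCs) and *Trim71* in none. A gene without any start-site peak is common, since 7620 protein-coding genes (34.7%) had none in any library. The RIEs of *Trim71* and *Gm11627* span the first base of their gene, so the choice of members itself kept peaks away from there. For *Trim71*, with 1 annotated start site, the RIE reached from 870 bp upstream to 879 bp inside. Its lack of a start-site peak was therefore nearly fixed in advance and is not a result.

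The *Trim71* RIE (chr9:114563490-114565239) spans the TSS of *Trim71* (ENSMUSG00000079259.2, chr9:114507133-114564369, minus strand), from 870 bp upstream to 879 bp inside the gene, and 880 of its bases are annotated as 5′ UTR. In order of time, its distance to the nearest peak was 27246, 18790, 18847, 18727, 18738 and 18829 bp, and in ESCs it was 6062 bp. The step after day 0 came from 1 intergenic region, chr9:114583967-114585090, centred 20160 bp upstream of the TSS. It had no peak on day 0 and spanned 842, 744, 914, 1041 and 757 bp on days 1, 2, 3, 6 and 9 and 927 bp in ESCs. It was the widest peak around *Trim71* in each of those 6 libraries. It was also present in all 6 when every library was cut to its 27074 widest peaks, a cut that keeps the ESC list whole.

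Within the *Trim71* gene, a pair of neighbouring intronic stretches had peaks in different sets of libraries. The region chr9:114527084-114527625 had a peak on days 0, 1, 3 and 6, spanning 239, 451, 267 and 200 bp. The region chr9:114527969-114528527, less than 1000 bp away, had one on days 6 and 9 and in ESCs, spanning 425, 375 and 559 bp. Only on day 6 were both called. The calls of the former were mostly narrow ones, and day 1 alone was left at the 300 bp limit or with lists cut to equal length, whereas the latter kept its 3 libraries under both. In ESCs alone an intronic peak of 254 bp at chr9:114557174-114557427 came nearest to the RIE, and it was lost when peaks under 300 bp were left out. Beyond the 3′ end, 2 regions in the *Ccr4* gene, which encodes a chemokine receptor, were called in ESCs and on day 2, and 1 of them also on days 3 and 9. In all, *Trim71* had 2, 2, 3, 4, 3 and 3 peaks within 20 kb in the MEF-derived libraries in order of time and 5 in ESCs, the highest count of the 7.

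The *Ipmk* RIE (chr10:71345975-71346850) lies between genes, from 1788 to 913 bp upstream of the first base of *Ipmk* (ENSMUSG00000060733.13, chr10:71347763-71433327, plus strand) and 1020 bp from *Cisd1*, which encodes an iron-sulphur protein of the mitochondrial outer membrane. A peak was called on either side of it but not on it. The *Ipmk* start-site region, chr10:71347349-71348129, had a peak in all 7 libraries, with widths of 781, 489, 359, 553, 581 and 561 bp in order of time and 589 bp in ESCs. The *Cisd1* start-site region, chr10:71344592-71345178, had one in 6 libraries, the exception being day 3, with spans of 298 to 534 bp. The RIE was thus flanked by open start sites on both sides in those 6 libraries. Over all 7 libraries, its distance to the nearest peak was 498, 647, 809, 588, 638 and 559 bp in order of time and 556 bp in ESCs. The largest of these distances, on day 2, went with the narrowest start-site peak.

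The peaks called inside *Ipmk* differed between libraries while its start site kept its peak. An intronic region at chr10:71372045-71372567 had a peak on days 1, 2 and 3, spanning 523, 309 and 200 bp, and in no other library. Day 0 had 2 intronic peaks of its own, of 512 bp and 200 bp, day 6 had 1 of 223 bp, and ESCs had 1 of 413 bp downstream of the gene at chr10:71448008-71448420. The 200 bp peak of day 0 (chr10:71401214-71401413) and that of day 6 (chr10:71401494-71401716) lay side by side. Both were lost at the 300 bp limit and with lists cut to equal length, as was the day 3 peak of chr10:71372045-71372567. Within 20 kb of *Ipmk* the libraries held 4, 3, 3, 2, 3 and 2 peaks in order of time and 3 in ESCs.

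The *Camkv* RIE (chr9:107936337-107936637) lies inside *Camkv* (ENSMUSG00000032936.13, chr9:107935674-107949691, plus strand), 663 to 963 bp downstream of its first base. Of its 301 bases 58 fall in an annotated exon, none of them coding or UTR, and it also lies within the annotated gene *Gm37974*. No peak was called in the *Camkv* gene body in any of the 6 MEF-derived libraries. ESCs had 1, of 265 bp, over the *Camkv* start at chr9:107935637-107935901, and it left the RIE 435 bp away. Being narrower than 300 bp, this peak was lost under that width limit, though it was among the peaks kept when lists were cut to equal length, since the ESC list is the shortest and was kept whole.

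In the MEF-derived libraries the *Camkv* RIE was 14030, 14081, 13980, 12878, 13954 and 14008 bp from the nearest peak, in order of time. Apart from day 3 this was the start site of the next gene, *Traip*, which encodes a ubiquitin ligase of DNA replication. That region, chr9:107950592-107951254, was open in all 7 libraries with spans of 355 to 587 bp. The *Camkv* counts of 4, 1, 3, 3, 3 and 3 peaks within 20 kb, and 3 in ESCs, therefore came mostly from *Traip*, over which 6 of the 8 merged regions lay.

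The *Zfp704* RIE lies upstream of *Zfp704* (ENSMUSG00000040209.12, chr3:9427020-9610085, minus strand), from 1471 to 688 bp before its first base, and the nearest other protein-coding gene, *Pag1*, is 75922 bp away. Here the start site lost its peak in ESCs. The start-site region chr3:9609664-9610479 had a peak of 816, 704, 511, 600, 532 and 601 bp in order of time, and none in ESCs. The distance from the RIE to the nearest peak was 293, 384, 415, 348, 352 and 342 bp in those libraries and 27957 bp in ESCs. The 6 start-site peaks were also present when every list was cut to its 27074 widest peaks, the length of the ESC list. Peaks within 20 kb of the gene numbered 9, 8, 8, 8, 8 and 9 in order of time and 3 in ESCs.

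Inside *Zfp704*, 2 intronic regions, at chr3:9491723-9492600 and chr3:9500582-9501204, had a peak in all 7 libraries, and chr3:9573446-9574134 had one in the 6 MEF-derived libraries. The region chr3:9599912-9600701, centred 9778 bp inside the gene, was called in the 5 doxycycline libraries alone, spanning 360, 425, 716, 635 and 283 bp on days 1, 2, 3, 6 and 9. It had no peak on day 0 or in ESCs, and day 9 fell out when peaks under 300 bp were left out. ESCs shared 2 of their 3 peaks with all other libraries, and the remaining one, chr3:9520013-9520361, was called in ESCs alone. Right beside it, chr3:9520431-9520890 had a peak on days 0 and 9. Of the 19 merged regions of *Zfp704*, 7 were called in a single doxycycline library. Over the 6 genes, these 7 included, it was 12 of 66 (18.2%), and 17.1% of all regions in the genome.

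The *Zfp532* RIE (chr18:65577867-65578229) lies from 2045 to 1683 bp upstream of the first base of *Zfp532* (ENSMUSG00000042439.13, chr18:65579912-65689443, plus strand), a gene with 27 annotated start sites. Chromosome 18 carried 827 to 2121 peaks per library, so its peaks are in the lists. Its distance to the nearest peak was 5181, 6660, 11674, 6676, 6777 and 11697 bp in order of time and 3806 bp in ESCs. On days 2 and 9 this was the intergenic region chr18:65565429-65566223, 14086 bp upstream of the gene, which had a peak in all 7 libraries. The larger distances fell on the MEF-derived libraries with the shortest lists, those of days 2 and 9.

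The start-site peaks of *Zfp532* were at different places in MEF-derived cells and ESCs. The region chr18:65584890-65585475 in the gene had a peak on days 0, 1, 3 and 6, of 577, 216, 515 and 401 bp, the last lying just over 1000 bp from the nearest start site. ESCs had a peak of 409 bp at chr18:65582036-65582444 instead. In an intron, chr18:65616109-65616770 had no peak on day 0 and spanned 591, 526, 581, 634 and 585 bp on days 1, 2, 3, 6 and 9 and 534 bp in ESCs. It was called in the same libraries among the 27074 widest peaks, a cut that keeps the ESC list whole. The region over the start of the next gene, *Oacyl*, at chr18:65697468-65698627, had peaks in the 6 MEF-derived libraries and none in ESCs. *Zfp532* had 10, 7, 3, 7, 4 and 4 peaks within 20 kb in order of time and 8 in ESCs. Of its regions, 6 were called in ESCs alone and 6 on day 0 alone. None of those 6 day 0 regions was kept with lists cut to equal length. At the 300 bp limit only those of 316 and 447 bp were kept, and the ESC regions of 279, 200 and 200 bp were lost. The ESC region chr18:65593027-65593403 lay right beside chr18:65593453-65594120, called on days 3 and 9.

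The *Gm11627* RIE (chr11:102579378-102579728) spans the start of *Gm11627* (ENSMUSG00000078640.9, chr11:102576398-102579461, minus strand), from 267 bp upstream to 83 bp inside, with 84 bases in the annotated UTR. Its distance to the nearest peak was 2491, 6057, 22713, 6127, 314 and 339 bp in order of time and 2786 bp in ESCs. The region chr11:102578654-102579063, at a start site inside the gene, was called on days 6 and 9 alone, 404 bp and 385 bp wide. This was the only region of the 6 genes called in exactly those 2 libraries, and it was kept at the 300 bp limit. The peaks nearest to the RIE on day 0 and in ESCs lay upstream of the gene, side by side without touching, and were 266 bp wide each.

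The other peaks counted for *Gm11627* belonged to its surroundings. The start-site region of *Gpatch8*, which encodes a G-patch domain protein, at chr11:102555857-102556664 had a peak in all 7 libraries, and on day 2 it was the nearest one to the RIE. The region chr11:102572720-102573320 had a peak in 5 libraries, all but day 2 and ESCs. Within 20 kb there were 3, 2, 1, 2, 4 and 3 peaks in order of time and 2 in ESCs, the lowest sum of the 6 genes (17).

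**Figure D3:**
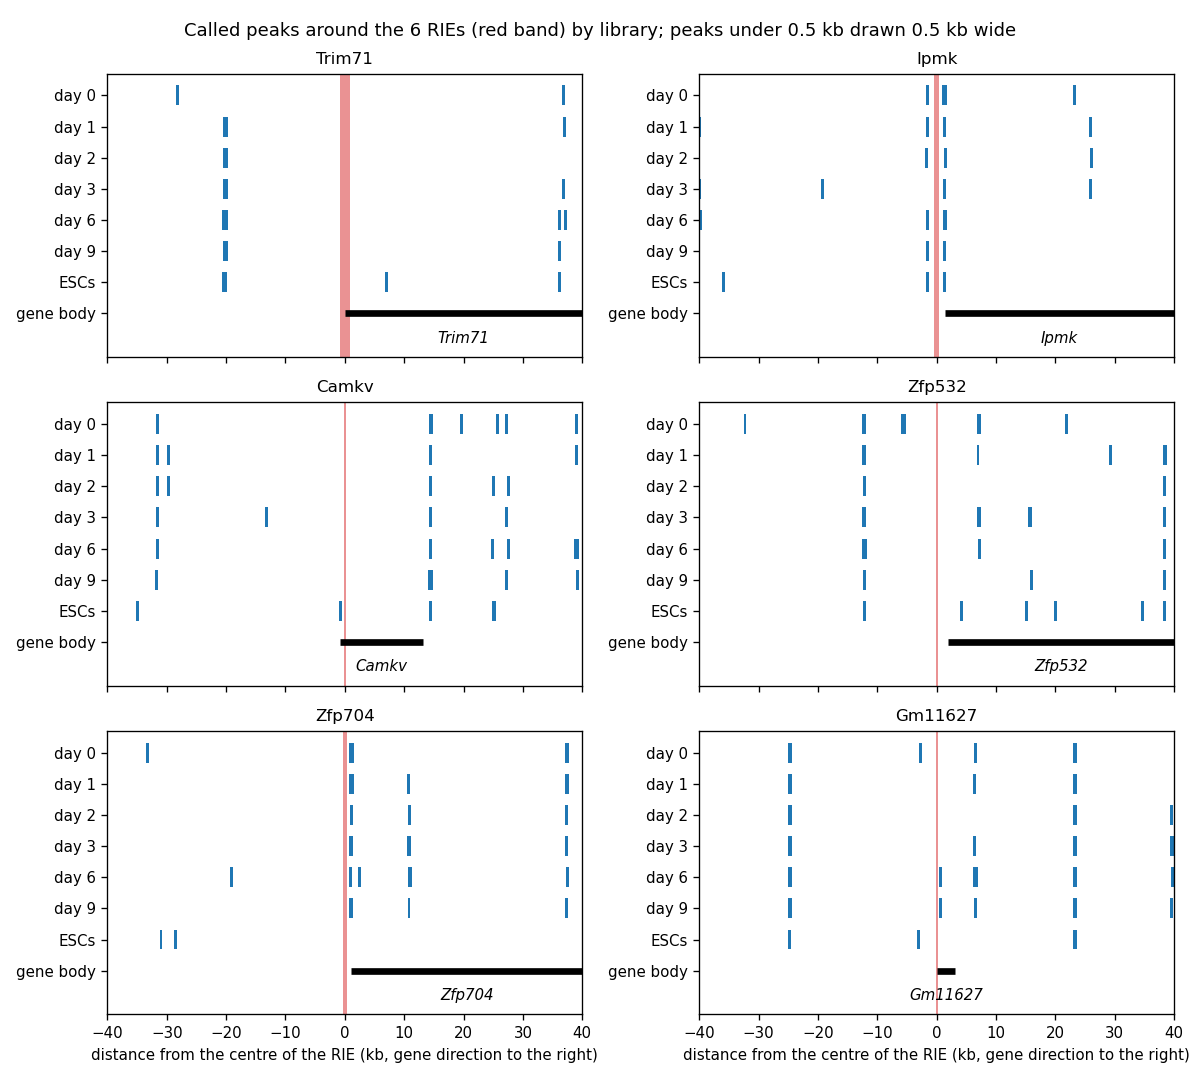
Called peaks (blue) around each of the 6 RIEs (red band) in the 7 libraries, against the distance in kb from the centre of the RIE with the direction of the gene to the right; the black bar is the gene body, and peaks under 0.5 kb are drawn 0.5 kb wide. No blue mark meets a red band, the peak about 20 kb upstream of *Trim71* is absent on day 0 alone, and the peak beside the *Zfp704* RIE is absent in ESCs alone.

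Peaks of all libraries that touched or overlapped were merged into regions, 66 of them within 20 kb of the 6 genes and 104346 in the genome. Of the 66 regions, 6 (9.09%) had a peak in all 7 libraries, where the genome had 9.75%. A further 3 (4.55%) had a peak in all 5 doxycycline libraries and none on day 0, where the genome had 3.59%, and these were the regions of *Trim71*, *Zfp532* and *Zfp704* described above. Day 0 alone had 15 (22.7%), where the genome had 23.9%, and ESCs alone had 11 (16.7%), where the genome had 9.76%. Of the 11 regions called in ESCs alone, 6 belonged to *Zfp532*, and without that gene 5 of 46 regions (10.9%) were of this class, close to the genome's share. At the 300 bp limit the ESC-alone regions of *Trim71* (254 bp), *Camkv* (265 bp) and *Gm11627* (266 bp) were lost. So were those of 279, 200 and 200 bp at *Zfp532*, and the genome's share at that limit was not computed. The 3 regions that appeared with doxycycline thus form a share like that of the genome, and they differed in ESCs, where those of *Trim71* and *Zfp532* had a peak and that of *Zfp704* had none.

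**Figure D4:**
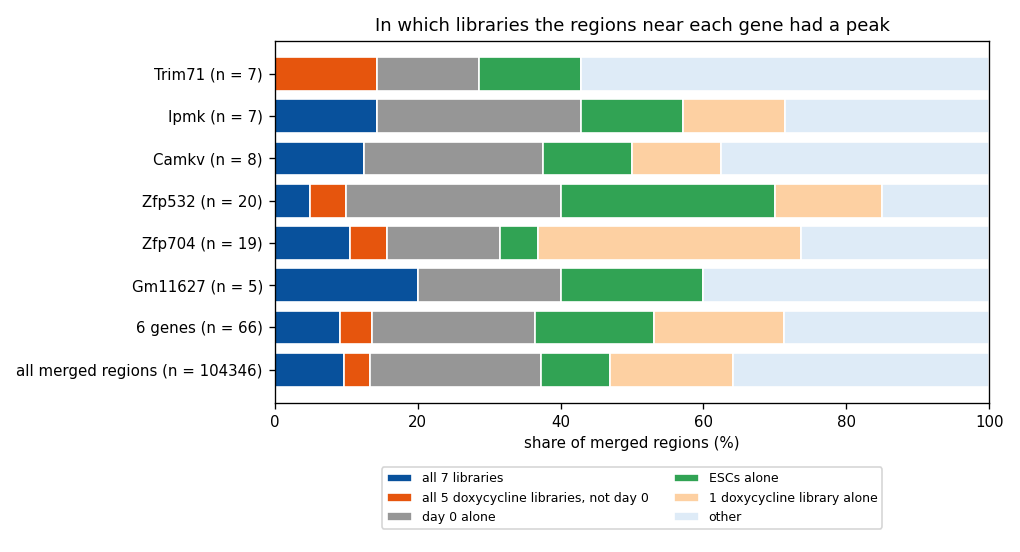
Share (%) of merged regions within 20 kb of each gene by the libraries in which they had a peak, for the 6 genes one by one, for their 66 regions together and for all 104346 regions. The 6 genes together resemble the genome except for regions called in ESCs alone (16.7% beside 9.76%), of which *Zfp532* holds 6 of 11. Several of these ESC regions are narrower than 300 bp. Of the 12 regions called in a single doxycycline library, *Zfp704* holds 7.

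Start-site peaks were also counted for genes of the same pathways or families, to be read beside the 50.3% to 59.7% of all protein-coding genes that had one. Around *Trim71*, the list held Lin28, let-7 and RNA decay genes and the *Trim71* relatives *Trim2* and *Trim3*. Its 11 symbols, which include older names of *Tut4* and *Tut7*, matched 9 annotated genes. Of these 9 genes, 7, 7, 7, 8, 8 and 7 had a start-site peak in order of time and 7 in ESCs. *Ago2*, *Dis3l2*, *Tut7*, *Trim2* and *Trim3* had one in all 7 libraries. *Lin28a*, whose protein blocks let-7 processing, had none in any library. Its relative *Lin28b* had one on days 2, 3 and 6 and in ESCs, and the let-7 target *Hmga2* had one in the 6 MEF-derived libraries and none in ESCs.

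Of 10 further inositol phosphate kinases, 9, 8, 8, 7, 8 and 8 had a start-site peak in order of time and 7 in ESCs. *Ip6k1*, *Ip6k2*, *Itpkc*, *Ippk*, *Ppip5k1* and *Ppip5k2* had one in all 7 libraries, as had *Ipmk*, and *Ip6k3* had none. Of 11 calmodulin-dependent kinases and their activators, 9, 9, 7, 9, 10 and 8 had one in order of time and 5 in ESCs. *Camk1d*, *Camk2d*, *Camk2g* and *Camkk1* had one in all 7, and *Pnck* had none. *Camkv* had its single start-site peak in ESCs, where its list had the lowest count. That peak, of 265 bp, was lost at the 300 bp limit. Of the partners and relatives of the zinc finger genes, *Zfp592*, *Zfp687* and *Zfp395* had a start-site peak in all 7 libraries and *Zmynd8* in none.

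Among the other genes of the RIE list, the peak counts most like those of *Trim71* over the 7 libraries were those of *Camkv* and *Celsr1*, each with a summed absolute difference of 6 peaks. For *Ipmk* they were those of *Camkv* and *Mapk4* (4 each), for *Camkv* those of *Celsr1* and *Ipmk* (4 each) and for *Gm11627* those of *Prss8* (3) and *Upp1* (4). The larger counts had less close matches. *Zfp704* was nearest to *Ankrd6* (8) and *Sema4b* (10), and *Ankrd6*, with 6 to 8 peaks in the MEF-derived libraries and 3 in ESCs, also had its lowest count in ESCs. *Zfp532* was nearest to *Igsf9* (13) and *Tbc1d13* (14), each further away than any match of the other 5 genes.

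The sites of *AI661453* and *Cnpy1* met the same rule. The *AI661453* site (chr17:47436218-47436953) spans the start of that gene, and its nearest peak lay between 3340 bp (ESCs) and 40601 bp (day 9) away. The gene had 1, 1, 1, 1, 2 and 0 peaks within 20 kb in order of time and 3 in ESCs, and no start-site peak in any library. The *Cnpy1* site (chr5:28211602-28212237) lies within the gene and was 1352 and 1360 bp from a peak on days 3 and 6, 1295 bp from one in ESCs and at least 45102 bp from one in the other libraries. That peak, in the region chr5:28209712-28210306, lies over the other RIE of *Cnpy1*, so the gene had an RIE with a peak beside one without.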

How the data were processed

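ATAC-seq peak lists of 7 mouse libraries were used, 1 per time-point, grouped by time-point alone. Per the study's methods, the authors trimmed reads (Trimmomatic), aligned them to mm10 (Bowtie2), discarded duplicates and downsampled to equal depth (Picard) and ran MACS2 on each library. The deposited files hold peak positions without a score, signal or read number, so depth is unknown. An absent peak therefore means that none passed the authors' threshold, which depends on that depth.

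The RIE coordinates are those of the study's list of 66 sites, and genes were taken from GENCODE M21. No peak lay past a chromosome end of the mm10 reference. The 2 cloned elements of the study that were checked were found whole in it, and not every cloned element was checked. A peak counted for a gene when it overlapped the gene body or 20 kb on either side by at least 1 bp, and for a start site when it lay within 1000 bp of any annotated one. Overlapping or touching peaks were merged into regions. Overlap counts were tested on simulated data and checked against BEDTools 2.31.1, with Python 3.11.15, numpy 2.4.6, pysam 0.24.0 and matplotlib 3.10.9. No p-value was computed, since each group has 1 library. The genes named are the 6 members, genes whose start site lay within 1000 bp of a counted peak, the 2 most similar genes of the list for each member, and listed pathway genes with a start-site peak in all libraries or in none, with *Lin28b* and *Hmga2* added after their values were seen. *AI661453*, *Cnpy1*, *Ccr4* and the genes nearest to a site were named for their position, *Zfp568* and *Zfp819* as the sites next to the rule's limit, and the marker genes *Esrrb*, *Zfp42*, *Pou5f1* and *Sox2* after their values were seen. The sequences of 2 RIEs, and the motif matches and composition of 1 of them, are not reported here. The members and gene lists were chosen with earlier results of these data known.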

Additional observations from a re-analysis of the deposited data

How the results depend on the processing

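Values summed or taken as a median over the 6 genes, and the number of sites, are listed wherever they moved by over 1.5 times. With peaks of at least 300 bp only, the peaks within 20 kb of the 6 genes numbered 19 on day 0, 16 on day 3, 16 on day 6 and 14 on day 9, and the median distance from RIE to peak was 16491.5 bp in ESCs, and 6402 and 9777 bp on days 0 and 3. When every list was cut to its 27074 widest peaks, 16, 15 and 16 peaks were left on days 0, 3 and 6, and the distance was again 6402 and 9777 bp on days 0 and 3. Counting 20 kb either side of the start site alone gave 11, 9, 7, 10, 13 and 11 peaks in order of time and 11 in ESCs, since the long gene bodies are then left out. With all 8 sites, an alternative chosen after seeing the data, the distance was 9605.5, 10370.5 and 12852.5 bp on days 0, 1 and 9. The number of RIEs without a peak, 8, fell to 4 when a peak within 500 bp counted, which keeps only *Trim71* and *Zfp532* of the 6 genes, and rose to 26 when 50% of the site had to be covered and to 14 with peaks of at least 300 bp. The counts of genes with a start-site peak moved by no more than 1.5 times under any alternative tried, but a fall from 3 to 2 genes stayed within that limit. Within 500 bp the count fell to 2 on days 0, 1 and 3, and with the first base of each gene alone also in ESCs. With peaks of at least 300 bp it fell to 2 on day 1 and in ESCs, and with lists cut to equal length on day 1. Within 2000 bp it rose to 4 on day 6. Of the counts for single genes, 53 of 168 moved by over 1.5 times, as did 12 of 84 distances. With peaks of at least 300 bp, the nearest peak was 74519 bp from the RIE of *Trim71* on day 0 and 18924 bp in ESCs, and 38899 bp from that of *Camkv* on day 9 and 14059 bp in ESCs. For *Gm11627* it was 6135 and 22781 bp away on days 0 and 3 and 22764 bp in ESCs, and for *Zfp532* 11741 bp on day 1. The values of days 0, 1 and 3 for *Trim71*, *Gm11627* and *Zfp532* were the same with lists cut to equal length, which left the other 4 unmoved. The ESC values among those 4 could not move, since the ESC list was kept whole. Why the remaining values moved was not tested. No paired analysis was possible because no time-point has more than 1 library, and for the same reason no library could be left out as a replicate.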
